A study of Homo sapiens with 3 samples.

Results

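Replicate 2 of the RBM17 eCLIP held 292 clusters named for small nuclear, small nucleolar, small Cajal body or other short noncoding RNA genes, out of 119066 clusters in all. They were chosen by the Ensembl identifier in the cluster name, where GENCODE v44 gives that gene the type snRNA (56 clusters), snoRNA (194), scaRNA (12) or misc_RNA (30). Clusters of replicate 1 and reproducible peaks that overlapped them on the same strand by at least 1 bp were added, which gave 302 of 137095 replicate 1 clusters and 1 of 866 reproducible peaks. The clusters belonged to 235 genes, and 189 of these genes had a single cluster. They made up 0.245% of the replicate 2 clusters and 2.67% of the replicate 2 cluster reads (35660 of 1336581). Cluster reads are summed over clusters here, and neighbouring clusters can share reads.

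eCLIP crosslinks proteins to the RNA they touch with ultraviolet light, precipitates the protein of interest, and sequences the attached RNA beside a size-matched input that was not precipitated. Here K562 cells, an established chronic myelogenous leukemia line with no genetic or drug treatment, were irradiated at 254 nm, RBM17 was precipitated with a mixture of 2 antibodies, and the part of the gel from 50 to 125 kDa was cut out for both input and precipitate. There were 2 RBM17 eCLIP replicates and 1 input, and no sample from cells that lack RBM17. All 10 of the K562 marker genes examined, such as GATA1 and HBG2, carried replicate 2 clusters (5210 reads), while 2 of the 6 markers of other cell types did (115 reads). All cluster positions below are in hg19, the build judged from a highest position of 249211903 on chromosome 1, which is 248956422 bases long in hg38. The study calls the replicates biological, and the labels do not say whether they came from separate cultures.

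The spliceosome removes introns with small nuclear RNAs (snRNAs), each packed with proteins into a particle. U1 pairs with the 5' splice site and U2 with the branch point, after which U4, U5 and U6 join as a tri-snRNP, U6 replaces U1 at the 5' splice site, and U5 holds the exon ends. U4atac and U6atac serve the minor spliceosome, which removes a rare class of introns. RBM17, also known as SPF45, is a splicing factor that associates with the U2 particle. Small nucleolar RNAs (snoRNAs) mostly lie in introns of host genes, and the C/D box class guides 2'-O-methylation of ribosomal RNA whereas the H/ACA class guides pseudouridylation. Small Cajal body RNAs (scaRNAs) guide the same changes on snRNAs.

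The following RNAs show examples of the snRNA families on either side of the input that are described below. Sequences are those of GENCODE v44 transcripts in GRCh38, with T in place of U, printed in lower case. Capitals mark short letters known from the biology of each RNA, searched on the RNA's own strand: GTAGTA, the branch point pairing stretch of U2, ACTTACCTG, which pairs with the 5' splice site in U1, ATTTTTG, the Sm protein site of U4, and AAGGAGA, the stretch of U6atac that pairs with the 5' splice site. The coordinates of the genes are GRCh38, and where along each RNA the hg19 clusters fall was not analysed here, since no hg19 sequence was used.
RNU2-2P (U2, chr11:62841619-62841809, - strand): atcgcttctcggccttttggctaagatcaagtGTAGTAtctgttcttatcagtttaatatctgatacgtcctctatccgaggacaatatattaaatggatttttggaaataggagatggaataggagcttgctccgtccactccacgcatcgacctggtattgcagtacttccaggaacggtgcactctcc
RNU4-1 (U4, chr12:120293097-120293237, - strand): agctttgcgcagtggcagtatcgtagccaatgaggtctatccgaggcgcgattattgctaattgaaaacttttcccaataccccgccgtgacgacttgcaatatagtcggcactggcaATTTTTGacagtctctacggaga
RNU1-4 (U1, chr1:16740516-16740679, + strand): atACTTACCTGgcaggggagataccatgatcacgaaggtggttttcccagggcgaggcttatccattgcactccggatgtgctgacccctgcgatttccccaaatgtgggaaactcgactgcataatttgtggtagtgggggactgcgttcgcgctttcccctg
RNU1-63P (U1-like copy, chr4:67429591-67429754, - strand): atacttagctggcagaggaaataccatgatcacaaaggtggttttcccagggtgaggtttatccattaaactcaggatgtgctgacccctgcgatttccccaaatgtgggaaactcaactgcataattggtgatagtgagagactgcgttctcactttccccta
RNU6ATAC (U6atac, chr9:134164439-134164564, - strand): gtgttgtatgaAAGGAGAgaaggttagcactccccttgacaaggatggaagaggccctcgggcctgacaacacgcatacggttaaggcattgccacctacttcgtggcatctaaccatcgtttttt

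In U1, 4 of 7 genes with a cluster held ACTTACCTG (33.6% of 143 annotated U1 genes and copies, 2.63% of all 1901 annotated snRNA genes), and RNU1-63P and RNU1-136P did not. In U2, 4 of 9 held GTAGTA (50.7% of 71 annotated, 3.58% of all snRNA genes), and in U4, 2 of 3 held ATTTTTG (41.1% of 90 annotated, 6.10% of all snRNA genes). AAGGAGA was found in RNU6ATAC and in 35.8% of the 67 annotated genes and copies of minor spliceosome RNAs (1.74% of all snRNA genes).

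Most clusters of the small RNAs were shared by the replicates and lay below the input. Of the 292 clusters, 270 overlapped a replicate 1 cluster, which is 92.5% (exact Clopper-Pearson 95% interval 88.8 to 95.2%), against 31.9% of all replicate 2 clusters. The share was 95.9% in snoRNA genes, 100% in scaRNA genes, 86.7% in misc_RNA genes and 82.1% in snRNA genes. Replicate 1 was deposited with a log2 fold over the input, where 0 means equal to the input. Of the 302 replicate 1 clusters over small RNAs, 245 had a log2 fold below 0, or 81.1% (interval 76.2 to 85.4%), against 11.4% of all replicate 1 clusters. Their median log2 fold was -1.36 (quartiles -2.17 and -0.42, range -5.58 to 6.46), whereas the median of all replicate 1 clusters was 1.51 (quartiles 0.68 and 2.19). The 302 were chosen to overlap a replicate 2 cluster, whereas all replicate 1 clusters, here and below, include those that overlap none. Shares below 0 over other clusters that do overlap a replicate 2 cluster are given below, by reads. By gene, 177 of the 216 small RNA genes with a replicate 1 cluster had every fold below 0, 36 had every fold above 0 and 3 had folds on both sides. No p-value bears on a fold below 0, because the authors' −log10 p was 0 at all 15562 such clusters. Clusters are not replicates, the intervals cover counting error only, and the folds come from 1 replicate, so no test of a difference was possible.

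The snRNA families lay on different sides of the input. The U1, U2, U4 and U6 families had a log2 fold above 0 at 25 of 31 replicate 1 clusters (median 1.98), near the level of all clusters (median 1.51). The other 6 were below 0, against 11.4% of all replicate 1 clusters, so a fold above 0 is not particular to these families. At 20 of these 31 clusters the authors' −log10 p was also at least 3, against 9.28% of all replicate 1 clusters. The 20 clusters came from 9 of 19 genes, and some abut and carry identical values. The 9.28% was not matched for reads. The U5 family was below the input at all 15 clusters (median -2.28, range -3.31 to -1.05), and the minor spliceosome RNAs at all 3 (median -0.91). By gene, 14 of 19 in the U1, U2, U4 and U6 families had every fold above 0, compared with 0 of 8 in U5 and 0 of 2 in the minor spliceosome.

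**Figure D1:**
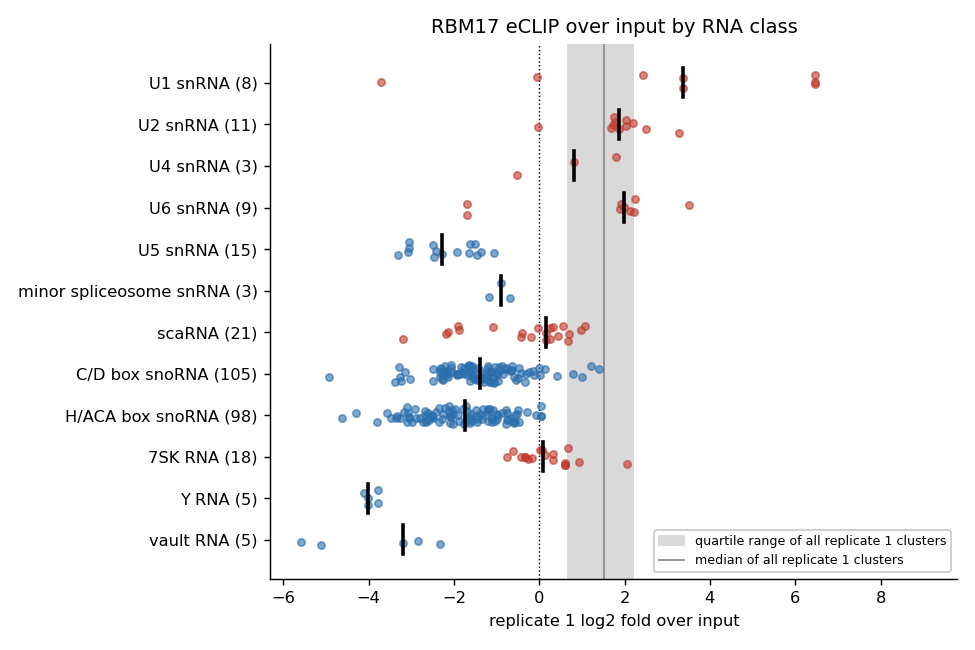
Replicate 1 log2 fold over the input (x axis) of the clusters over each RNA class (rows, number of clusters in parentheses). Points are clusters, spread vertically at random, black bars are class medians, red classes have a median above 0 and blue ones below, and the grey band runs between the quartiles of all replicate 1 clusters (0.68 to 2.19). The 15 U5 clusters lie between -3.31 and -1.05, while 10 of the 11 U2 clusters lie above 0.

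In U2, RNU2-2P, a U2 gene whose RNA is 97.3% identical to RNU2-1 over their local alignment (as for all identities below), held most of the family's reads. Its 3 replicate 2 clusters at 62609098 to 62609188 on the - strand of chromosome 11 held 190, 315 and 363 reads. The 3 replicate 1 clusters there had log2 folds of 1.72, 1.75 and 1.79 with −log10 p of 400 (the limit of the authors' values), 80.8 and 78.2. These 3 folds are close to each other and lie inside the quartiles of all replicate 1 clusters. The clusters of WDR74, a ribosome biogenesis factor, overlapped those of RNU2-2P on the same strand, so reads here carried both names. Of the other U2 genes, which are copies with 3 to 17 reads in their highest cluster, 6 had a replicate 1 cluster. The log2 fold was -0.03 at RNU2-61P and above 0 in the other 5: 1.68 at RNU2-68P, 2.04 at RNU2-37P, 2.19 at RNU2-33P, 2.51 at RNU2-29P, and 1.87, 2.04 and 3.28 at RNU2-36P. RNU2-29P rested on 3 replicate 2 reads and a −log10 p of 0.981. Clusters named for HDAC8, RUVBL1 and GSKIP overlapped those of RNU2-68P, RNU2-37P and RNU2-33P, respectively, on the same strand.

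In U1, the family with the highest folds, reads were few. The highest U1 cluster held 17 reads, at RNVU1-18, where the log2 fold was -0.06. RNU1-63P, a copy 90.2% identical to RNU1-1 that lies on the - strand of chromosome 4, held 15 reads in 1 cluster (68295371 to 68295400). It had the highest log2 fold among the small RNAs, 6.46 with a −log10 p of 23.8, given identically for the 3 abutting replicate 1 clusters there. It also carried the only reproducible peak over a small RNA (68295371 to 68295401, log2 fold 5.47 and −log10 p 4.94 over both replicates together), so that 1 of 292 clusters overlapped a peak against 0.739% of all replicate 2 clusters. A cluster of another gene, ENSG00000250075, overlapped it on the same strand. RNU1-4, whose RNA is identical to RNU1-1, had a log2 fold of 3.36 with a −log10 p of 3.89 on 4 reads in each of 2 clusters, and RNU1-136P had 2.43 with a −log10 p of 17.4 on 11 reads. RNVU1-17 lay far below them at -3.70 with 6 reads.

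In U6, RNU6-9 on the + strand of chromosome 19 (893537 to 893588) held 106, 175 and 183 reads in 3 clusters. Its log2 folds of 2.22, 2.23 and 2.12 were close to each other, with −log10 p of 28.5, 42.2 and 44.3. RNU6-4P, with the same RNA sequence, had 37 and 36 reads and log2 folds of 1.90 and 1.98. RNU6-32P had a log2 fold of 1.93 on 10 reads, and RNU6-968P 3.51 on 11 reads in each cluster with a −log10 p of 2.39. A same-strand cluster named for RFC1 overlapped that of RNU6-32P. RNU6-45P, 96.3% identical to RNU6-1, was the U6 gene below the input (-1.68 in both replicate 1 clusters, on 5 reads). In U4, RNU4-1 had log2 folds of 0.81 and 1.79 (−log10 p 3.33 and 10.4) on 25 and 28 reads. RNU4-2 had 24 reads and no replicate 1 cluster, and the copy RNU4-82P had -0.51 on 5 reads. RNU1-4, RNU1-3 and RNVU1-18 are identical to RNU1-1, and RNU6-9, RNU6-4P and RNU6-2 to RNU6-1, so which of the identical genes gave the reads is uncertain.

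In U5, reads were the most numerous of the snRNAs and every fold was below 0. RNU5E-1 held 2212, 2395, 2886 and 2858 reads in 4 abutting clusters on the + strand of chromosome 1 (11968281 to 11968316), the narrowest of them 2 bp wide, so that neighbouring clusters must share reads. Because of this sharing the highest cluster, not the sum, is the better measure of a gene's depth. Per 100 bases of annotated RNA, the highest cluster held 2405 reads in RNU5E-1, 482 in RNU5F-1, 432 in RNU5A-1, 342 in RNU5D-1 and 212 in RNU5B-1. Reads rise with the amount of an RNA as well as with binding, and these cannot be told apart in replicate 2, which has no values over the input.

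In fold over the input the order of the U5 genes was different. RNU5D-1, with reads of 397 and 357, had the highest log2 fold of the family at -1.05. RNU5E-1 followed with -1.64 to -1.37 in 4 clusters, and RNU5A-8P, a copy with 221 and 93 reads, lay within that range at -1.62. RNU5E-4P had -1.92 and RNU5F-1, with 564 reads, -2.28. RNU5B-1 (246 and 142 reads) had -2.50 and -2.42, which overlaps in part the range of RNU5A-1 (501 and 174 reads), from -3.08 to -2.46. RNU5E-6P was lowest with -3.31 and -3.06, a range that overlaps that of RNU5A-1. The sequence identity to RNU5A-1 was 94.0% for RNU5B-1, 88.3% for RNU5E-1, 85.1% for RNU5F-1 and 84.4% for RNU5D-1.

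In the minor spliceosome, RNU4ATAC held 250 reads and RNU6ATAC 272 reads in 1 cluster each. RNU4ATAC had log2 folds of -0.91 and -0.68, and RNU6ATAC -1.17. Of the 64 small noncoding RNAs listed for the spliceosome, nucleolus, Cajal body and related particles, 41 carried a replicate 2 cluster by name, and 37 a replicate 1 cluster as well. All folds were below 0 in 25 of these 37, while 11.4% of all replicate 1 clusters were below 0. At 6 of the 37 a fold was above 0 with a −log10 p of at least 3, namely RNU1-4, RNU2-2P, RNU4-1, RNU6-9, SCARNA7 and TERC. Among all replicate 1 clusters this share was 9.28%. The counts of 37 are by gene and the shares over all are by cluster, so they are not like for like. No replicate 2 cluster carried the identifiers of RNU1-1, RNU2-1, RNU6-1, RNU11, RNU12, RNU7-1 or RN7SL1 to RN7SL3, the last being the RNA of the signal recognition particle. In all, 2.06% of replicate 2 clusters carried an identifier that is not in GENCODE v44, which could not be classified.

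**Figure D2:**
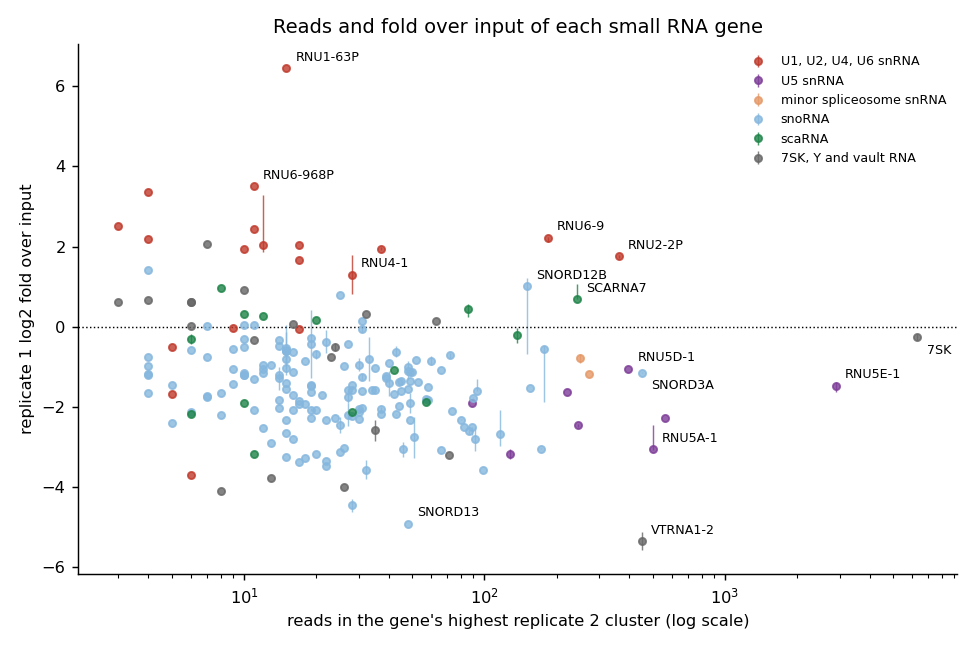
Reads in the highest replicate 2 cluster of each small RNA gene (x axis, log scale) and its replicate 1 log2 fold over the input (y axis, median of the gene's clusters, with a line from the lowest to the highest). Each point is 1 gene with a replicate 1 cluster, coloured by RNA class as in the legend. The genes with most reads, 7SK (6322) and RNU5E-1 (2886), lie below 0, and RNU2-2P (363) and RNU6-9 (183) lie above it.

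The snoRNAs were the largest group, and nearly all lay below the input. Of the C/D box clusters in replicate 1, 98 of 105 had a log2 fold below 0 (93.3%, interval 86.7 to 97.3%; median -1.39), and of the H/ACA box clusters 95 of 98 (96.9%, interval 91.3 to 99.4%; median -1.74), so the intervals of the classes overlap. SNORD3A, which encodes U3, the snoRNA needed for processing of the ribosomal RNA precursor, held the most snoRNA reads with 253, 452, 328 and 72 in 4 clusters, and its replicate 1 folds were -1.16 and -1.14. SNORD13, encoding U13, which acts in ribosomal RNA maturation, had the lowest snoRNA fold with -4.92 on 48 reads. SNORD118, encoding U8, needed for the large ribosomal subunit, had -3.39 on 17 reads. Among the H/ACA RNAs, SNORA73B, encoding U17, had folds of -3.06 to -3.04 on 171 and 158 reads, and SNORA54 had -4.62 and -4.30 on 28 reads.

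The exceptions were few. SNORD12B, in the noncoding host gene ZFAS1, had log2 folds of 1.22 and 1.01 with −log10 p of 26.2 and 18.8 at 2 adjoining replicate 1 clusters (47896882 to 47896911 on the + strand of chromosome 20) and -0.69 at the next cluster (47896914 to 47896944). Its 4 replicate 2 clusters held 125, 141, 150 and 92 reads. SNORD14E, in the chaperone gene HSPA8, had 0.79 with a −log10 p of 33.2, from a replicate 1 cluster of 78 bp against a replicate 2 cluster of 17 bp. These were the snoRNA genes above the input with a −log10 p of at least 3, and the other snoRNA clusters above 0 had log2 folds from 0.01 to 1.41.

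The scaRNAs, which guide the modification of snRNAs, were divided around the input. This class, read from gene symbols, includes SCARNA10, SCARNA12 and SCARNA18, which GENCODE types as snoRNA. Of 21 clusters, 10 were below 0 (47.6%, interval 25.7 to 70.2%) and the median log2 fold was 0.16, with a range of -3.19 to 1.07. SCARNA7, in the host gene KPNA4, held 243 and 102 reads and was above the input in all 3 replicate 1 clusters (0.68, 0.69 and 1.07, −log10 p 6.09 to 9.81). SCARNA10 lay at 0.24 to 0.56 on 85 reads in its highest cluster, and SCARNA12, with 136 reads, at -0.41 and -0.03. SCARNA13 (57 reads) had -1.89 and SCARNA5 (42 reads) -1.07.

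Because intronic RNAs share their locus with a host gene, the naming of these clusters is not unique. Of the 292 clusters, 220 (75.3%, interval 70.0 to 80.2%) overlapped a same-strand replicate 2 cluster named for another gene. These included 102 of 110 C/D box, 74 of 78 H/ACA box and 16 of 16 scaRNA clusters, with classes read from gene symbols. In the U1, U2, U4 and U6 families 18 of 38 clusters did so, against 2 of 16 in U5. The other names included ENSG00000267158 at RNU6-9, SOX2-OT at RNU6-4P and CROCC at RNU1-4, so reads there also carried 2 names. Among the rest were HDAC8 at RNU2-68P, RUVBL1 at RNU2-37P, GSKIP at RNU2-33P and RFC1 at RNU6-32P. The folds of 145 snoRNAs and scaRNAs were set beside those of the other clusters of their 95 host genes in replicate 1. The small RNA had the lower median in 133 of 145 (91.7%), with a median of -1.56 over the small RNAs and 0.77 over the hosts, and a median difference of -2.39 on the log2 scale. In these values a host of several small RNAs was counted for each of them. SNORA20 in TCP1, a chaperonin subunit, had the widest gap, with a median of -1.29 that was lower than the host's by a difference of -6.29. SNORA54 had -4.46 against 1.58 in NAP1L4, a histone chaperone. In EIF4A2, a translation initiation factor, SNORA81 (-0.57), SNORA4 (-1.10) and SNORD2 (-1.01) lay below the input while the host's 14 other clusters had a median of 3.73. SNORA63B, between SNORD2 and SNORA81 on the same strand, had a fold of 0.04 on 11 reads. Its cluster overlapped none named EIF4A2, so it was not among the 145. SNORA81 held 177 reads in its highest cluster. The order was opposite in 12 of 145, with the widest such gap at SNORD104 in SNHG25 (-2.19 against -3.85 at 1 host cluster), followed by SNORD99 in SNHG12 (-0.69 against -2.01). At 32 of the 95 hosts the median itself was below 0.

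**Figure D3:**
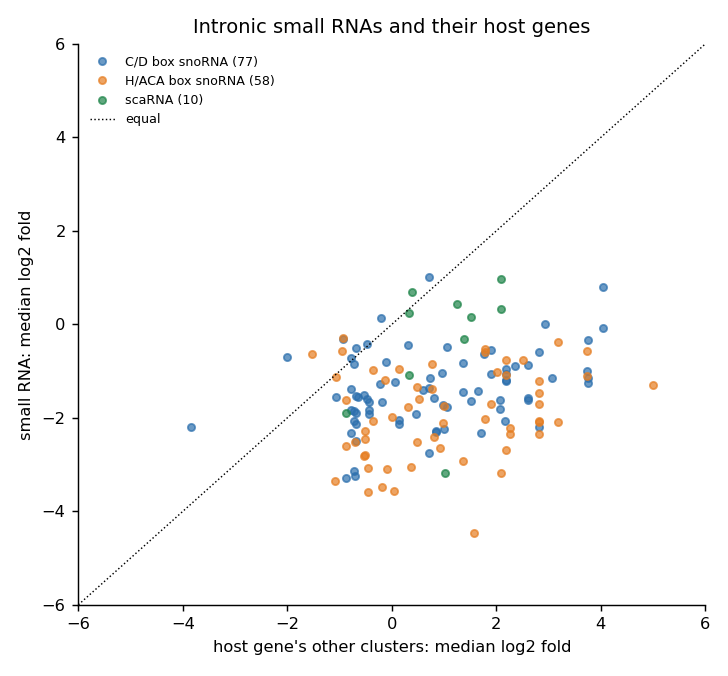
Median replicate 1 log2 fold over the input of 145 intronic small RNAs (y axis) against that of the other clusters of their host gene (x axis), with 1 point for each small RNA, coloured by class (77 C/D box, 58 H/ACA box, 10 scaRNA), and a dotted line where the values are equal. Of the points, 133 lie under the line.

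In the misc_RNA genes, 7SK, which holds the transcription elongation factor P-TEFb in an inactive particle, had the highest reads of any small RNA. Its clusters on the + strand of chromosome 6 (52860664 to 52860748) held 6322 and 4038 reads, or 1910 per 100 bases of RNA in the higher one. The replicate 1 folds were -0.33, -0.27 and -0.18, close to the input. The 14 copies of 7SK held at most 63 reads in a cluster, and 10 of the 14 genes of this class with a replicate 1 cluster had folds above 0, none with a −log10 p of at least 3. 7SK and RNU5E-1 together held 58.1% of the summed reads of all small RNA clusters, a sum that counts reads shared by neighbouring clusters more than once. Y RNAs are RNAs of the Ro particle. The named genes RNY1 and RNY4 had no replicate 2 cluster, and RNY3 had 7 reads and no replicate 1 cluster. The Y RNA clusters with a fold came from 3 genes whose symbol is only Y_RNA. These clusters were far below the input at -4.10 to -3.79 in 5 of 5, on at most 26 reads. The vault RNAs, components of the cytoplasmic vault particle that GENCODE types here as misc_RNA, were below it in 5 of 5. VTRNA1-2 had the lowest fold of all small RNAs (-5.58 and -5.12 on 450 and 194 reads), followed in its class by VTRNA1-1 (-3.20 on 71 reads) and VTRNA1-3 (-2.85 and -2.32). Small RNAs also supplied 35 of the 113 replicate 1 clusters in the whole series with a log2 fold of -3 or lower (31.0%). Of all 137095 replicate 1 clusters, 302 were over small RNAs.

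Small RNA clusters had more reads than others (median 25, against 5 over all replicate 2 clusters) and were slightly narrower (median 31 bp against 36 bp), so the shares were also read within ranges of reads. At 3 to 9 reads, 65.0% of the replicate 1 clusters over small RNAs were below the input (interval 48.3 to 79.4%), against 14.7% over other clusters. At 10 to 29 reads the shares were 79.2% and 18.5%, at 30 to 99 reads 92.6% and 26.0%, and at 100 or more reads 77.1% (interval 62.7 to 88.0%) and 32.6% (interval 28.4 to 37.1%). The intervals of small RNAs and others did not overlap in any range. They cover counting error only and treat clusters that can share reads or a gene as separate, so this is a description and not a test. The overlap between replicates was 69.1% at 3 to 9 reads (23.8% in others) and 100% at 100 or more (92.9% in others). The 22 clusters without a replicate 1 cluster held at most 93 reads.

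**Figure D4:**
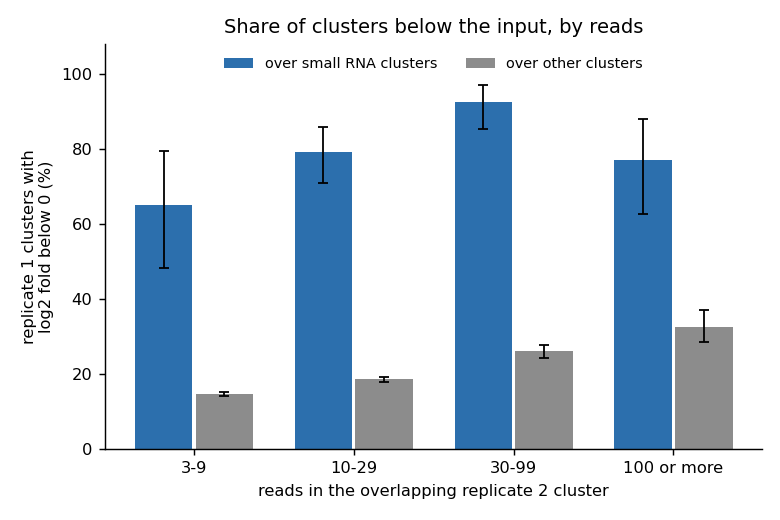
Share of replicate 1 clusters with a log2 fold below 0 (y axis, percent) over small RNA clusters (blue) and over all other clusters (grey), by the reads of the overlapping replicate 2 cluster (x axis). Bars are shares and error bars exact Clopper-Pearson 95% intervals, and the blue bars run from 65.0% to 92.6% while the grey bars run from 14.7% to 32.6%.

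Past the thresholds of log2 fold at least 3 and −log10 p at least 3, replicate 1 called 6 of the 302 clusters over small RNAs (1.99%, interval 0.733 to 4.27%), against 5.35% of all replicate 1 clusters. All 6 were in U1 or U2 genes, namely the 3 of RNU1-63P, the 2 of RNU1-4, and 1 of RNU2-36P (3.28 with a −log10 p of 3.62). With so few clusters, and abutting ones that carry identical values, the 6 stand for 3 genes.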

How the data were processed

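RBM17 eCLIP of K562 cells was analysed from the processed files of 2 replicates and 1 list of reproducible peaks. Per the labels and the study's methods, the authors ran a published eCLIP pipeline with cutadapt and STAR, whose versions are not given in the sources used here. The published form of this pipeline removes reads that map to repetitive elements before genome mapping. Whether copies of small RNAs were in that set is not given in the sources used here, and it could lower the reads of multicopy RNAs. The authors deposited replicate 1 and the reproducible peaks with a −log10 p (limited to 400 in replicate 1) and a log2 fold, both relative to the input. The deposited replicate 2 clusters instead carry the peak caller's p-value (at most 0.05), which does not use the input, and their reads. The depth of replicate 1 is unknown. Replicates are numbered as in the sample descriptions, whereas the titles number them 2 and 3.

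Overlaps needed 1 bp on the same strand. Computation used Python 3.11.15, pandas 2.3.3, numpy 2.4.6, scipy 1.17.1, Biopython 1.88 (local alignment, match 1, mismatch -1, gap opening -2, extension -1) and matplotlib 3.10.9. A replicate 1 cluster over several small RNAs was given to the one sharing most bases. RNA classes were read from gene symbols. A host was the other gene name on overlapping clusters, the one with most replicate 1 clusters where there were several. Shares have exact Clopper-Pearson 95% intervals. The overlap routine was tested on simulated data. With 1 condition and folds from 1 replicate, no test between groups was run. The members and lists were chosen with earlier results of these data known. The named genes were the listed RNAs with a cluster, the 10 genes with most reads, those with a reproducible peak, the 5 highest and 5 lowest by fold, and the 3 with most reads in each gene type; further copies within a named family, hosts and exceptions were named after their values were seen. The sequences of some of the RNAs are not reported here.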

Additional observations from a re-analysis of the deposited data

How the results depend on the processing

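Of 29 alternative values, 23 stayed within the 95% interval of the value reported (for counts, within 1.5 times) and none changed direction. The number of clusters was 80 instead of 292 with a caller p of at most 1e-10, and 237 with at least 10 reads. The share with a replicate 1 cluster was 88.7% when 50% of the cluster had to overlap, 97.9% with at least 10 reads, 98.8% with a caller p of at most 1e-10, and 79.2% over the clusters with no other gene name. The median log2 fold ranged from -1.43 to -1.38. Alternatives added after seeing the data gave medians from -1.45 (snRNA genes left out) to -1.21 (clusters with no other gene name), and a share of replicate 1 clusters below the input of 71.2% over the clusters with no other gene name, instead of 81.1%. Leaving out replicate 1 cannot change the 292 clusters, which come from replicate 2, and is not counted among these values. Leaving out replicate 2 was not run because the clusters are defined by it. No paired analysis was possible because there is 1 group of eCLIP replicates and 1 input. Identical gene copies, clusters that share reads, and the lack of input values for replicate 2 limit what can be said of single genes.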

Other observations

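Several RNAs related to those described fall outside the gene types used. TERC, the RNA of telomerase, had 113 reads in 3 replicate 2 clusters and replicate 1 log2 folds from 0.13 to 2.05 with a −log10 p of up to 9.09. SCARNA9 had 103 reads and folds from -0.68 to 0.24. VTRNA2-1, a vault RNA relative, had 614 reads in 1 cluster and a median log2 fold of -2.97 over 2 replicate 1 clusters. Among other abundant RNAs, mitochondrial ribosomal RNA was below the input at 45 of 55 replicate 1 clusters (81.8%) and ribosomal RNA pseudogenes at 34 of 47 (72.3%), while mitochondrial transfer RNA was below it at 3 of 15. For clusters in protein coding genes and in lncRNAs that do not overlap a small RNA, the shares below the input were 16.0% and 31.0%.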
